A study of Homo sapiens with 6 samples.

Results

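The BCL2 family decides at the mitochondrion whether a cell lives or dies, and 10 of its genes were followed here through the knockdown of a long non-coding RNA. The genes were taken by their symbols from tables of 27968 genes, and all 10 were found there with 58 isoforms of 70006. They comprise 3 guardians (BCL2, BCL2L1, MCL1), 2 effectors (BAX, BAK1) and 5 BH3-only genes (BID, BCL2L11, BMF, PMAIP1, BBC3). RNA came from H23, an established human lung adenocarcinoma cell line grown in culture. One group of 3 libraries had received HOTAIR-N siRNA, directed at a form of the non-coding RNA HOTAIR, and the other group of 3 a control siRNA, both delivered with the lipid reagent RNAiMAX. Each library stands for its own transfection, and RNA was taken 48 hours later. A single cell line, 1 siRNA named against HOTAIR-N and 1 time point were used, so the values describe that siRNA in those cells.

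Guardian proteins such as BCL2, BCL-XL (from BCL2L1) and MCL1 sit on the outer mitochondrial membrane and bind their killing relatives. The effectors BAX and BAK1 form pores in that membrane when they are activated, which lets cytochrome c out and starts the caspase cascade. BH3-only proteins are the sensors: each carries a short helix, the BH3 segment, that occupies the groove of a guardian or activates an effector. Many tumour cells depend on a single guardian, and MCL1 is a short-lived protein that PMAIP1 (NOXA) binds with preference.

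The BH3 segment is what the family shares, and its coding sequence is shown for each member to let the members be compared. The sequences come from GENCODE release 29, from the annotated transcript of the most abundant isoform with control siRNA. Each runs over 30 bases of coding strand, with the codons of the conserved leucine, of glycine or alanine, and of aspartate in capitals.
BCL2: accCTCcgccaggccGGCGACgacttctcc
BCL2L1: gcgCTGagggaggcaGGCGACgagtttgaa
MCL1: accTTAcgacgggttGGGGATggcgtgcag
BAX: tgtCTCaagcgcatcGGGGACgaactggac
BAK1: cagCTCgccatcatcGGGGACgacatcaac
BID: cacCTCgcccaggtcGGGGACagcatggac
BCL2L11: gagTTGcggcgtattGGAGACgagtttaac
BMF: aagCTTcagtgcattGCAGACcagttccac
PMAIP1: caaCTCaggagatttGGAGACaaactgaac
BBC3: cagCTGcggcggatgGCGGACgacctcaac
The motif searched was a leucine, any 3 residues, a glycine or alanine, and an aspartate. Each of the 10 proteins held it once, whereas 25.7% of 19513 annotated coding genes held it somewhere in some coding transcript, so the letters alone do not mark a BH3 segment. Of the members, 8 carry glycine, and BMF and BBC3 carry alanine. Identity between the stretches of 2 members lay between 11 and 21 of 30 bases, with a median of 16.0. The most alike were BAK1 with BID and BCL2L11 with BBC3, at 21 bases.

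The libraries held 32715361 to 36578681 expected counts, which are estimates of the reads of each gene. Correlations of log2 CPM (counts scaled to the size and composition of each library) were at least 0.994 within the groups and at most 0.977 between them. Every pair of replicates differed by more than sampling noise, and control replicate 1 stood apart most, with a chi-square per degree of freedom of 14 and 12.7 against the other control libraries. Leaving it out changed no call among the 10 genes. HOTAIR had 88, 74 and 82 expected counts with HOTAIR-N siRNA, against 169, 148 and 202 with control siRNA, and fell by 1.04 on the log2 scale (SE 0.14; edgeR, adjusted p = 1.32e-05). The tables name no HOTAIR-N isoform, so this value covers the gene as annotated. Epithelial markers (KRT8, KRT18, KRT19, KRT7, EPCAM) summed to between 2897 and 3267 TPM with HOTAIR-N siRNA, against 3703 to 4411 TPM with control siRNA, and none of the 5 was under 1 TPM in all libraries. KRT18 carried that difference, with 1449 to 1597 TPM with HOTAIR-N siRNA and 2355 to 2809 TPM with control siRNA. KRT8, KRT19 and EPCAM overlapped between the groups, and KRT7 was higher with HOTAIR-N siRNA, at 2.15 to 2.94 TPM against 1.08 to 1.63 TPM with control siRNA. TPM is a level adjusted for transcript length, scaled to the same total in each library. Of 4 lung lineage markers 3 were under 1 TPM in every library. NKX2-1 was above, and higher with HOTAIR-N siRNA, at 1.95 to 3.02 TPM against 1.06 to 1.54 TPM with control siRNA. Of 7 markers of blood, endothelium and fibroblasts 6 were under 1 TPM, CD68 being above. The part of the KRT18, KRT7 and NKX2-1 differences in the results below was not tested. Fewer cells of a type and less RNA per cell cannot be told apart in such bulk samples.

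Among the members, PMAIP1, BMF and MCL1 rose with HOTAIR-N siRNA, and BCL2 and BCL2L1 fell. The other 5 genes, BAX, BAK1, BID, BCL2L11 and BBC3, did not pass the test. A call here means a Benjamini-Hochberg adjusted p below 0.05 in edgeR's quasi-likelihood test over all 15072 genes tested. The whole transcriptome differed widely between the siRNAs: 28.7% of tested genes were called higher and 28.8% lower. Set against that, 3 of 10 members higher and 2 of 10 lower is a share near the background. The median log2 fold change was 0.13 over the members and 0.01 over all tested genes. In 7 of the 10 members the CPM of the groups did not overlap, which held for 62.9% of all tested genes. The plot of CPM by library shows the values of all members.

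**Figure D1:**
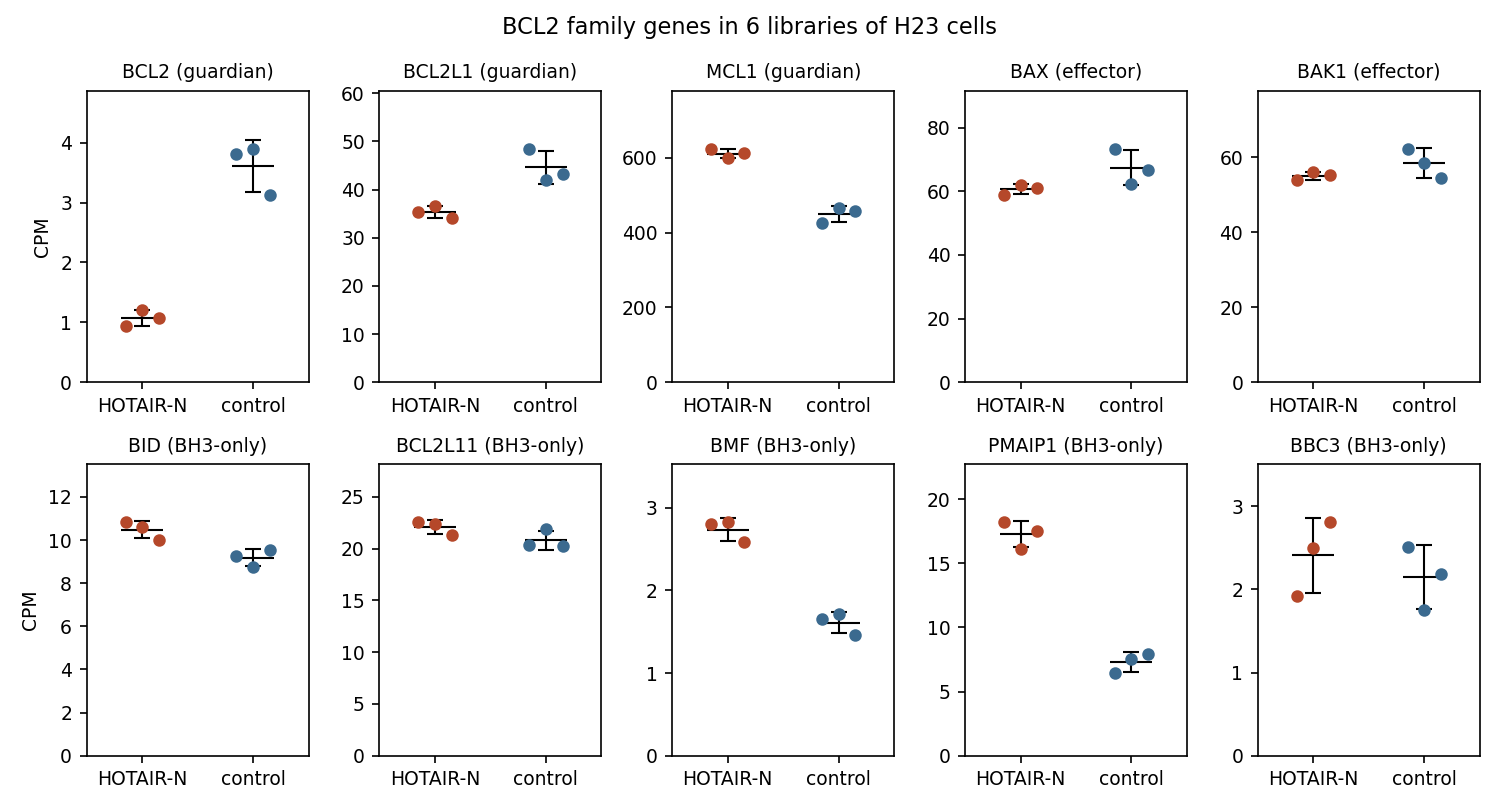
CPM of the 10 BCL2 family genes (y axis, from 0) in each library, HOTAIR-N siRNA at left and control siRNA at right of each panel; points are libraries, the wide tick is the mean and bars are the SD of 3 libraries. PMAIP1 averages 17.3 against 7.29 CPM and BCL2 1.07 against 3.61 CPM, with no overlap, while the points of BAK1, BCL2L11 and BBC3 overlap between the groups.

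BCL2, the founding guardian and the gene of the follicular lymphoma translocation, had 31, 41 and 38 expected counts with HOTAIR-N siRNA, against 132, 136 and 113 with control siRNA. All 3 HOTAIR-N siRNA libraries lay well under the lowest control library. In CPM this was 1.07 ± 0.13 with HOTAIR-N siRNA and 3.61 ± 0.43 with control siRNA (SD, n = 3 each), so that 29.7% of the control level was left. The log2 fold change was -1.75 (SE 0.16; edgeR, adjusted p = 3.02e-07). On the scale of counts the fall lay in the long BCL2 isoform, described below with the short one. The average effective length that the authors' tables give for the gene (the stretch of transcript from which a read can start, averaged over isoforms) was 1678 ± 119.8 nt with HOTAIR-N siRNA and 3855 ± 222.9 nt with control siRNA (SD, n = 3 each). With these lengths in the fit BCL2 still passed, at a log2 fold change of -0.55 (edgeR, adjusted p = 0.00939). The level per length was 1.10, 1.39 and 1.11 TPM with HOTAIR-N siRNA, against 1.74, 2.06 and 1.62 TPM with control siRNA, still without overlap.

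BCL2L1, which encodes the guardian BCL-XL, had 1162, 1243 and 1213 expected counts with HOTAIR-N siRNA, against 1676, 1466 and 1566 with control siRNA. The groups did not overlap, and the highest control value was that of control replicate 1. Its log2 fold change was -0.34 (SE 0.07; edgeR, adjusted p = 7.56e-04). MCL1, the most abundant member, moved the other way, with 20484, 20345 and 21804 expected counts with HOTAIR-N siRNA, against 14680, 16278 and 16592 with control siRNA. All HOTAIR-N siRNA libraries exceeded all control libraries. The log2 fold change was 0.44 (SE 0.05; edgeR, adjusted p = 4.45e-06). The 3 guardians thus did not move together: 1 rose and 2 fell.

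The effectors showed no call. BAX had 58.9, 62.0 and 60.9 CPM with HOTAIR-N siRNA, against 73.3, 62.2 and 66.7 CPM with control siRNA. The groups did not overlap, but HOTAIR-N siRNA replicate 2 and control replicate 2 lay almost together. The log2 fold change was -0.15 (SE 0.07; edgeR, adjusted p = 0.0617), and BAX passed when control replicate 2 was left out, at -0.21 (edgeR, adjusted p = 0.0185). BAK1 had 53.9, 56.1 and 55.3 CPM with HOTAIR-N siRNA, against 62.3, 58.6 and 54.4 CPM with control siRNA. Control replicate 3 lay among the HOTAIR-N siRNA libraries, and the log2 fold change of -0.09 (SE 0.06) did not pass (edgeR, adjusted p = 0.267).

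Of the BH3-only genes, PMAIP1 changed most. PMAIP1 encodes NOXA, which binds MCL1 and speeds its degradation and is known as a target of p53 and of stress signalling. It had 597, 549 and 623 expected counts with HOTAIR-N siRNA, against 222, 262 and 287 with control siRNA. The lowest HOTAIR-N siRNA library was far over the highest control library. In CPM it averaged 17.3 ± 1.04 with HOTAIR-N siRNA and 7.29 ± 0.78 with control siRNA (SD, n = 3 each), and the HOTAIR-N siRNA mean was 237.1% of the control mean. The log2 fold change was 1.24 (SE 0.09; edgeR, adjusted p = 3.24e-08), and its p stood at rank 463 among the 15072 tested genes. Each leave-one-out fit called it, between 1.17 and 1.31 on the log2 scale.

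BMF, a BH3-only protein held on the cytoskeleton by a dynein light chain, had 92, 96 and 92 expected counts with HOTAIR-N siRNA, against 57, 60 and 53 with control siRNA. The groups lay apart, with little spread inside either. The log2 fold change was 0.76 (SE 0.14; edgeR, adjusted p = 3.23e-04). PMAIP1 and BCL2 were the only members called in a test against a fold of 1.5 in place of any change. BMF missed it there (edgeR, adjusted p = 0.244). That test was run on counts without effective lengths. With these lengths in the fit the log2 fold change of BCL2 was -0.55, and a fold of 1.5 was not tested with them.

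BID, which caspase-8 cuts into its active form, had 355, 361 and 357 expected counts with HOTAIR-N siRNA, against 320, 305 and 345 with control siRNA. The CPM of the groups did not overlap, but the log2 fold change of 0.19 (SE 0.08) did not pass (edgeR, adjusted p = 0.0566). It passed with unscaled library totals (0.21; edgeR, adjusted p = 0.0355) and with a filter of at least 1 CPM in 3 libraries (0.20; edgeR, adjusted p = 0.0412). BBC3, which encodes PUMA, another p53 target, had 63, 85 and 100 expected counts with HOTAIR-N siRNA, against 87, 61 and 79 with control siRNA. The groups overlapped, and the log2 fold change was 0.17 (SE 0.17; edgeR, adjusted p = 0.424).

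BCL2L11, which encodes BIM, a strong activator of BAX and BAK1, had 740, 761 and 758 expected counts with HOTAIR-N siRNA, against 703, 763 and 733 with control siRNA. The groups overlapped, and the log2 fold change was 0.08 (SE 0.07; edgeR, adjusted p = 0.319). Per length its level was 10.99, 11.88 and 11.21 TPM with HOTAIR-N siRNA, against 8.56, 9.43 and 8.38 TPM with control siRNA, with no overlap. The effective length of the gene was 3641 ± 137.8 nt with HOTAIR-N siRNA and 4568 ± 93.0 nt with control siRNA (SD, n = 3 each). With effective lengths in the fit BCL2L11 passed, at a log2 fold change of 0.41 (edgeR, adjusted p = 1.36e-04). Its short isoform NM_207002, described below, averaged 3.24 TPM with HOTAIR-N siRNA and 0.60 TPM with control siRNA. That gap is about as large as the gene's own gap in mean TPM. The isoform has few reads and no BH3 stretch, so the rise per length does not show more RNA with that stretch. For the other 8 members the effective lengths differed little, the ratio of the HOTAIR-N siRNA mean to the control siRNA mean lying between 0.997 (BCL2L1) and 1.038 (BBC3).

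**Figure D2:**
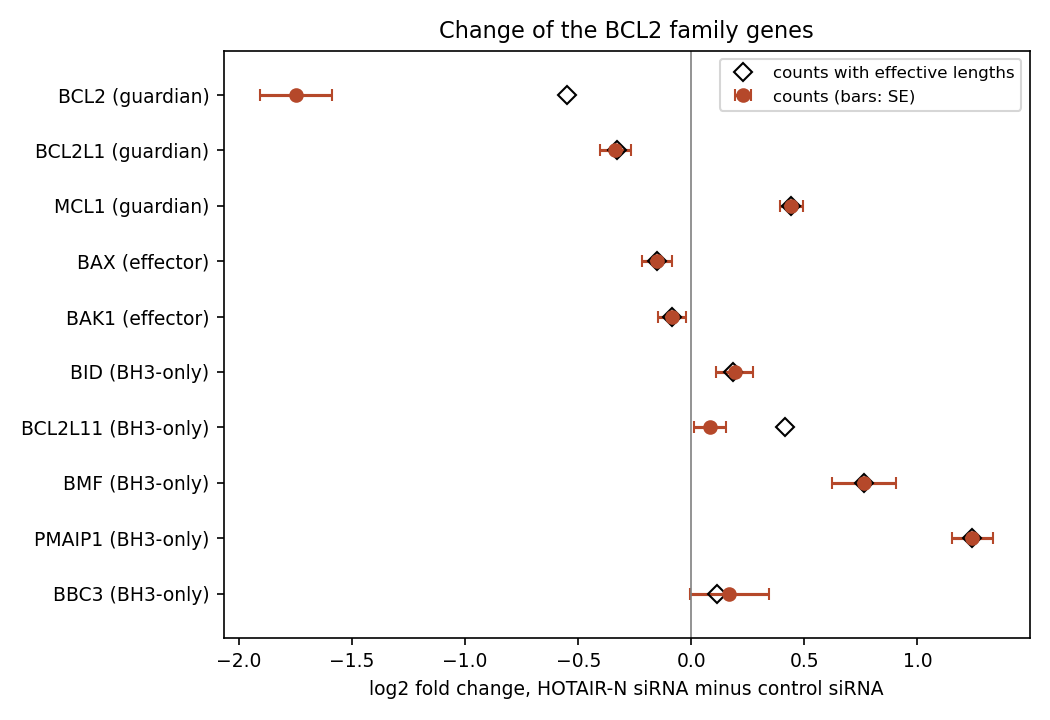
Log2 fold change of each member (x axis, HOTAIR-N siRNA minus control siRNA), with filled points and SE bars for the fit on counts and open diamonds for the fit with effective lengths as offsets. The 2 estimates lie together except for BCL2 (-1.75 and -0.55) and BCL2L11 (0.08 and 0.41).

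The promoters of PMAIP1 and BCL2, the members that rose and fell most on the scale of counts, both lie on chromosome 18 and are shown for comparison. They are RefSeq sequences on GRCh38.p14, from 250 bases before to 50 bases after the annotated start, read along the gene's strand. A set of 4 words was searched on both strands, and capitals mark the matches: GGGCGG (the GC box), TGACGT (part of the site of CREB and ATF factors), ATTGG (the CCAAT box read on the other strand) and CACGTG (the E-box). None of the marked matches overlap.
PMAIP1 promoter, chr18:59899746-59900045, plus strand: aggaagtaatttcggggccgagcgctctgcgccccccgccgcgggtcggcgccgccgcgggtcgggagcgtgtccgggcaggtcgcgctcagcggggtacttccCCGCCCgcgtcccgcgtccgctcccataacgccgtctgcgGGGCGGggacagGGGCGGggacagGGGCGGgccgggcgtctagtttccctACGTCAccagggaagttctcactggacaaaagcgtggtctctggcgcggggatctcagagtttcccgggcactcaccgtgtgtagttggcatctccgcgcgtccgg
BCL2 promoter, chr18:63319720-63320019, minus strand: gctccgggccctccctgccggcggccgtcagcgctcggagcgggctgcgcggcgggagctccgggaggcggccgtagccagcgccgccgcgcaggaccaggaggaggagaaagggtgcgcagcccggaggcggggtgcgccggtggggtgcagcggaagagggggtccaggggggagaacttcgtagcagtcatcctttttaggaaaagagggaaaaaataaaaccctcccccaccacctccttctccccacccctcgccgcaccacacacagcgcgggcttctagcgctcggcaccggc
The PMAIP1 window held 4 GC boxes and 1 TGACGT, which stands there as its reverse complement. The BCL2 window held none of the 4 words, with a GC content of 70.7%, against 71.3% in the PMAIP1 window. Among all 35116 windows of 300 bases in the table, 45.0% held a GC box, 8.0% TGACGT, 34.6% ATTGG and 7.3% CACGTG. Of 9 members with an entry, 7 had a GC box, 1 had TGACGT (PMAIP1), 5 had ATTGG and 3 had CACGTG. BAX had the most E-boxes, 4 in its window. Several members have more than 1 annotated start, and a match in any window was counted. A match is a description of the letters and not a binding site.

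Levels can be compared between members only per length. With HOTAIR-N siRNA the order of mean TPM was MCL1 (303.3), BAX (172.2), BAK1 (51.0), BCL2L1 (27.9), PMAIP1 (18.3), BCL2L11 (11.4), BID (9.70), BBC3 (3.20), BCL2 (1.20) and BMF (1.16). Only the last neighbours, BCL2 and BMF, overlapped between their libraries. With control siRNA the order was MCL1 (230.7), BAX (196.9), BAK1 (55.8), BCL2L1 (36.0), BID (8.79), BCL2L11 (8.79), PMAIP1 (7.98), BBC3 (3.06), BCL2 (1.81) and BMF (0.71). There MCL1 and BAX overlapped, as did BID with BCL2L11 and BCL2L11 with PMAIP1. PMAIP1 stood thus at rank 5 with HOTAIR-N siRNA and at rank 7 with control siRNA.

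Summed by role over the 10 members only, the levels are described without a test. Other guardians and BH3-only genes are left out, among them BCL2L2 and BAD. BAD averaged 29.1 TPM with HOTAIR-N siRNA and 35.8 TPM with control siRNA, above each BH3-only member in either group. BCL2L2 averaged 37.04 TPM with HOTAIR-N siRNA and 32.85 TPM with control siRNA. Of the guardians and BH3-only genes so left out, only BAD had a lower mean with HOTAIR-N siRNA. The BH3-only genes summed to 43.9, 43.2 and 44.1 TPM with HOTAIR-N siRNA, against 28.4, 29.8 and 29.8 TPM with control siRNA. This sum counts isoforms without the BH3 stretch too, such as BCL2L11 NM_207002, at 3.24 TPM with HOTAIR-N siRNA and 0.60 TPM with control siRNA. The effectors summed to 223.2 ± 7.03 TPM with HOTAIR-N siRNA and 252.7 ± 11.9 TPM with control siRNA (SD, n = 3 each). The guardians summed to 332.4 ± 7.02 TPM with HOTAIR-N siRNA and 268.5 ± 18.8 TPM with control siRNA (SD, n = 3 each). None of these 3 sums overlapped between the groups. Such a gap is common here, as the CPM of 62.9% of all tested genes did not overlap either. Neither BAX nor BAK1 was called by itself, so the lower effector sum is no called fall. The effector-like BOK is left out of it. BOK averaged 38.77 TPM with HOTAIR-N siRNA and 45.23 TPM with control siRNA, with overlap between the groups and no call. MCL1 made up 91.3% ± 0.52 of the guardian sum with HOTAIR-N siRNA and 85.8% ± 1.68 with control siRNA (SD, n = 3 each), so the guardian sum follows MCL1. BCL2L1 made up 8.39% ± 0.46 with HOTAIR-N siRNA and 13.5% ± 1.66 with control siRNA, and BCL2 stayed under 1% in each library. Among the BH3-only members, which leave out BAD, PMAIP1 made up 41.9% ± 1.94 with HOTAIR-N siRNA and 27.2% ± 2.63 with control siRNA (SD, n = 3 each). Over the 10 members, the BH3-only sum came to 13.0%, 13.3% and 13.2% of the guardian sum with HOTAIR-N siRNA. With control siRNA it came to 11.42%, 10.46% and 10.96%. As BAD and BCL2L2 are left out, these percentages do not give the balance over all genes of these roles. PMAIP1 alone came to 6.03% ± 0.18 of MCL1 with HOTAIR-N siRNA and 3.45% ± 0.19 with control siRNA (SD, n = 3 each).

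**Figure D3:**
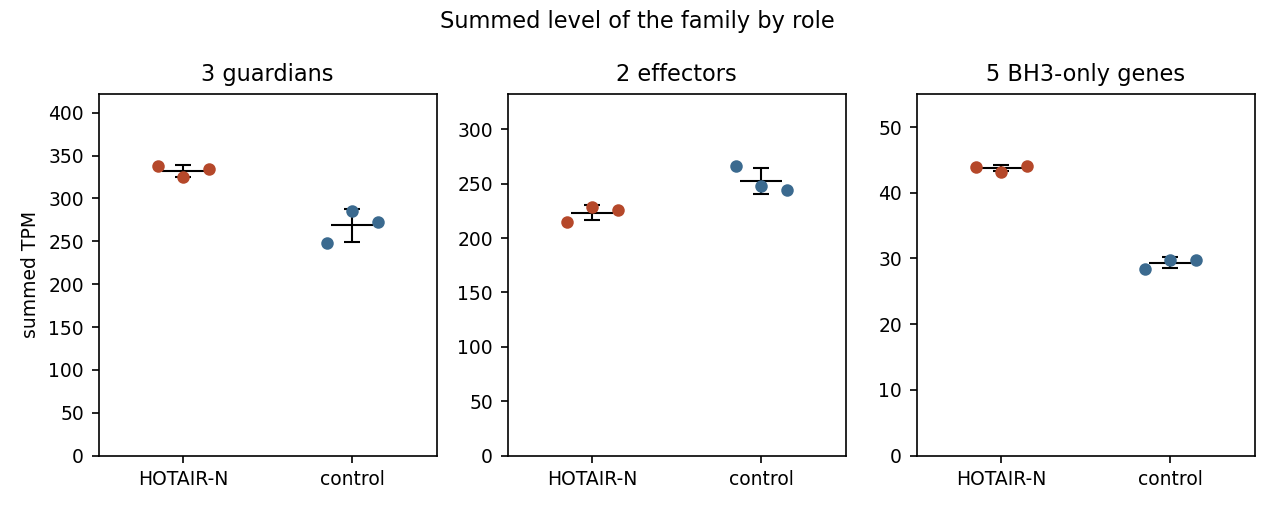
Summed TPM (y axis, from 0) of the guardians, the effectors and the BH3-only genes among the 10 members in each library. HOTAIR-N siRNA stands at left of control siRNA. Points are libraries, wide ticks means and bars SD of 3 libraries. The BH3-only sums lie at 43.2 to 44.1 TPM with HOTAIR-N siRNA, above the 28.4 to 29.8 TPM with control siRNA.

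Reads of the members were also divided among isoforms, which are named as in RefSeq. Of 58 isoforms, 5 were at 0 in every library and 36 passed the filter on low counts. Of these, 3 rose, 3 fell and 30 did not pass the test. Over all 32627 isoforms tested, 9.39% were called higher and 10.1% lower, so the members' shares are again near the background. Reads that fit several isoforms are shared out between them by estimation, and that uncertainty does not enter the test.

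For BCL2 the fall lay in the long isoform. NM_000633, the full-length transcript of 6492 nt that codes for 239 residues, had 12.9, 17.9 and 19.4 expected counts with HOTAIR-N siRNA, against 118.1, 118.1 and 97.2 with control siRNA. The groups lay far apart, and the log2 fold change was -2.68 (SE 0.28; edgeR, adjusted p = 0.00272). NM_000657, a transcript of 1206 nt that codes for 205 residues without the membrane anchor, had 18.1, 23.1 and 18.6 expected counts with HOTAIR-N siRNA, against 13.9, 17.9 and 15.8 with control siRNA. These groups lay just apart, and the log2 fold change of 0.38 (SE 0.44) did not pass (edgeR, adjusted p = 0.649). The short isoform took 58.3%, 56.3% and 49.0% of the gene's expected counts with HOTAIR-N siRNA, against 10.5%, 13.2% and 14.0% with control siRNA. As a share of the gene's TPM, the long isoform made up 12.1% ± 2.19 with HOTAIR-N siRNA and 53.4% ± 4.23 with control siRNA (SD, n = 3 each). Both isoforms hold the BH3 stretch printed above.

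In BCL2L11 a short isoform differed as well. NM_207002, of 722 nt, had 25.9, 36.8 and 35.5 expected counts with HOTAIR-N siRNA, against 7.99, 4.86 and 5.19 with control siRNA. The lowest HOTAIR-N siRNA library had over 3 times the reads of the highest control library. Its log2 fold change was 2.48 (SE 0.49; edgeR, adjusted p = 0.0207), and the call was lost in 5 of 6 leave-one-out fits, with adjusted p up to 0.0928. These reads were 3.50%, 4.84% and 4.69% of the gene's expected counts with HOTAIR-N siRNA, against 1.14%, 0.64% and 0.71% with control siRNA. Because the isoform is short, it made up 28.5% ± 3.73 of the gene's TPM with HOTAIR-N siRNA and 6.86% ± 2.09 with control siRNA (SD, n = 3 each). Its annotated coding sequence gives 112 residues and does not hold the BH3 stretch of BCL2L11. The main long isoform, NM_138621, codes for 198 residues with that stretch and had 409.9, 350.4 and 352.2 expected counts with HOTAIR-N siRNA, against 239.8, 358.6 and 452.1 with control siRNA. Its groups overlapped, with a log2 fold change of 0.15 (SE 0.23; edgeR, adjusted p = 0.746). NM_138623, which codes for 109 residues and holds the stretch, had a log2 fold change of 1.08 (SE 0.45; edgeR, adjusted p = 0.168). NM_006538, with 138 residues, was at 0 in HOTAIR-N siRNA replicates 2 and 3 and in control replicate 3, and did not pass (edgeR, adjusted p = 0.273).

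**Figure D4:**
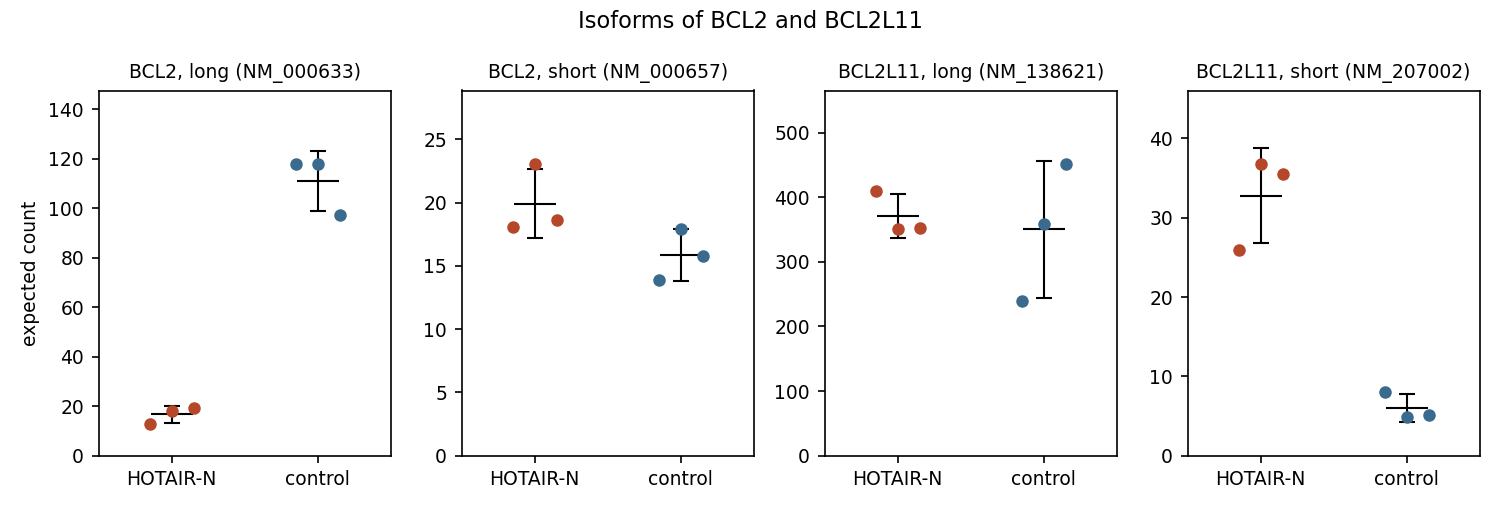
Expected counts (y axis, from 0) of the long and the short isoform of BCL2 and of BCL2L11 in each library, HOTAIR-N siRNA at left of control siRNA; points are libraries, wide ticks means and bars SD of 3 libraries. The long BCL2 isoform has 12.9 to 19.4 counts with HOTAIR-N siRNA and 97.2 to 118.1 with control siRNA, and the short BCL2L11 isoform 25.9 to 36.8 with HOTAIR-N siRNA and 4.86 to 7.99 with control siRNA.

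The other isoform calls followed their genes or lay within them. PMAIP1 has 1 isoform in the tables, NM_021127, which codes for 54 residues and rose by 1.26 on the log2 scale (SE 0.11; edgeR, adjusted p = 0.00176). MCL1 NM_021960, the guardian form of 350 residues, had 13185, 16443 and 15130 expected counts with HOTAIR-N siRNA, against 12132, 10584 and 10200 with control siRNA. The groups did not overlap, with a log2 fold change of 0.50 (SE 0.11; edgeR, adjusted p = 0.0280). The call was lost in 5 of 6 leave-one-out fits, with adjusted p up to 0.0931. MCL1 NM_001197320, of 197 residues, had 3716 to 7071 expected counts with HOTAIR-N siRNA and 2311 to 6164 with control siRNA, high where NM_021960 of the same group was low, and did not pass (edgeR, adjusted p = 0.630). BAX NM_004324, of 218 residues, had 377.9, 476.2 and 421.4 expected counts with HOTAIR-N siRNA, against 811.9, 560.7 and 774.1 with control siRNA, without overlap. It fell by 0.69 on the log2 scale (SE 0.17; edgeR, adjusted p = 0.0378), a call lost in 5 of 6 leave-one-out fits, with adjusted p up to 0.125. The main BAX isoform, NM_138761 of 192 residues, had a log2 fold change of -0.02 (SE 0.09; edgeR, adjusted p = 0.937). BCL2L1 NM_001317919, 1 of several transcripts that code for the same 233 residues, fell by 0.65 on the log2 scale (SE 0.16; edgeR, adjusted p = 0.0405), and lost the call in 6 of 6 leave-one-out fits, with adjusted p up to 0.120.

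The remaining tested isoforms that made up at least 10% of their gene did not pass. For BCL2L1, NM_001317920, NM_001317921 and NM_001322239 had log2 fold changes of -0.34, -0.39 and -0.45. BAX NM_001291428 had 0.13, and BAK1 NM_001188, the only isoform of its gene, -0.07. BID NM_001196 had 0.12, and BID NM_001244567, at 0 in 1 HOTAIR-N siRNA library and in control replicate 3, had 2.05 with an SE of 2.28. BMF reads were divided among 4 isoforms, of which 2 were tested. NM_001003940 and NM_033503 had log2 fold changes of 0.18 (SE 1.40) and 1.80 (SE 1.29), and each was at 0 in 1 library. Of the untested isoforms, NM_001003943 took 32.1 of 96 counts in HOTAIR-N siRNA replicate 2, and NM_001003942 took 29.9 of 60 counts in control replicate 2. BBC3 NM_001127241 had 0.27 (SE 0.34), and NM_001127242 had -1.32 (SE 1.97). With an SE above 1 on this scale the direction was not resolved.

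Whether the isoforms of a gene changed unequally was tested in the 8 members with 2 or more tested isoforms. By edgeR's diffSpliceDGE function with Simes p-values, 0 of 8 members passed, against 4.13% of the 7523 genes tested. None of the 8 had an unadjusted p under 0.05, and the smallest was 0.20. By the gene-level F test of the same function 1 member passed, BCL2 (edgeR, adjusted p = 0.00346). The call for BCL2 thus depends on how its 2 isoforms are combined into 1 p.

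The family has further members, and of 11 listed 10 were tested. With HOTAIR-N siRNA 2 rose, 2 fell and 6 did not pass, with a median log2 fold change of 0.08. The share called was 40% here and 57.5% over all tested genes. BCL2A1, a guardian that NF-kB induces, had 33, 28 and 29 expected counts with HOTAIR-N siRNA, against 12, 12 and 10 with control siRNA, and rose by 1.44 on the log2 scale (SE 0.26; edgeR, adjusted p = 2.25e-04). BCL2L2, the guardian BCL-W, rose by 0.22 log2 units (SE 0.06; edgeR, adjusted p = 0.00656). BCL2L2 shares exons with a readthrough gene, so the division of its reads is uncertain. BAD, a BH3-only protein controlled by phosphorylation, fell by 0.24 log2 units (SE 0.08; edgeR, adjusted p = 0.0222). That call was lost without HOTAIR-N siRNA replicate 1 (edgeR, adjusted p = 0.113) or control replicate 2 (edgeR, adjusted p = 0.0528). BCL2L15 had 7, 12 and 5 expected counts with HOTAIR-N siRNA, against 16, 14 and 20 with control siRNA. It fell by 1.00 log2 units (SE 0.36; edgeR, adjusted p = 0.0265), and did not pass without HOTAIR-N siRNA replicate 1 (edgeR, adjusted p = 0.0722), without HOTAIR-N siRNA replicate 3 (adjusted p = 0.136), without control replicate 3 (adjusted p = 0.0949) or with DESeq2 (adjusted p = 0.102).

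Of 15 genes that act around the mitochondrial step, 7 rose, 1 fell and 7 did not pass, with a median log2 fold change of 0.09. The share called was 53.3%, against 57.5% over all tested genes (28.7% higher and 28.8% lower). The gene that fell was VDAC2, an outer membrane channel known to bind BAK1. It had 3445, 3363 and 3543 expected counts with HOTAIR-N siRNA, against 7767, 8247 and 8692 with control siRNA. The groups lay far apart, and the log2 fold change was -1.21 (SE 0.05; edgeR, adjusted p = 2.32e-10). CYCS, which encodes cytochrome c, had 321.0, 278.4 and 325.1 CPM with HOTAIR-N siRNA, against 185.3, 217.9 and 220.2 CPM with control siRNA, and rose by 0.57 log2 units (SE 0.07; edgeR, adjusted p = 1.11e-05). HTRA2, a protease released from mitochondria, rose by 0.52 log2 units (SE 0.06; edgeR, adjusted p = 3.05e-06).

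Of 14 genes that control the family's transcripts or proteins, 3 rose, 6 fell and 5 did not pass, with a median log2 fold change of -0.14. The share called was 64.3%, against the same 57.5% over all tested genes. DDIT3 (CHOP), a stress factor known to regulate BH3-only genes, had 18.2, 17.5 and 17.0 CPM with HOTAIR-N siRNA, against 28.1, 23.7 and 25.2 CPM with control siRNA. It fell by 0.55 on the log2 scale (SE 0.08; edgeR, adjusted p = 2.67e-05). ATF4, known to act upstream of DDIT3 and PMAIP1, fell by 0.31 log2 units (SE 0.06; edgeR, adjusted p = 4.17e-04). FOXO3, known to activate BCL2L11 and BBC3, rose by 0.44 log2 units (SE 0.07; edgeR, adjusted p = 6.55e-05). E2F1, a cell cycle factor that also activates BH3-only genes, rose by 0.43 log2 units (SE 0.07; edgeR, adjusted p = 7.45e-05).

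**Figure D5:**
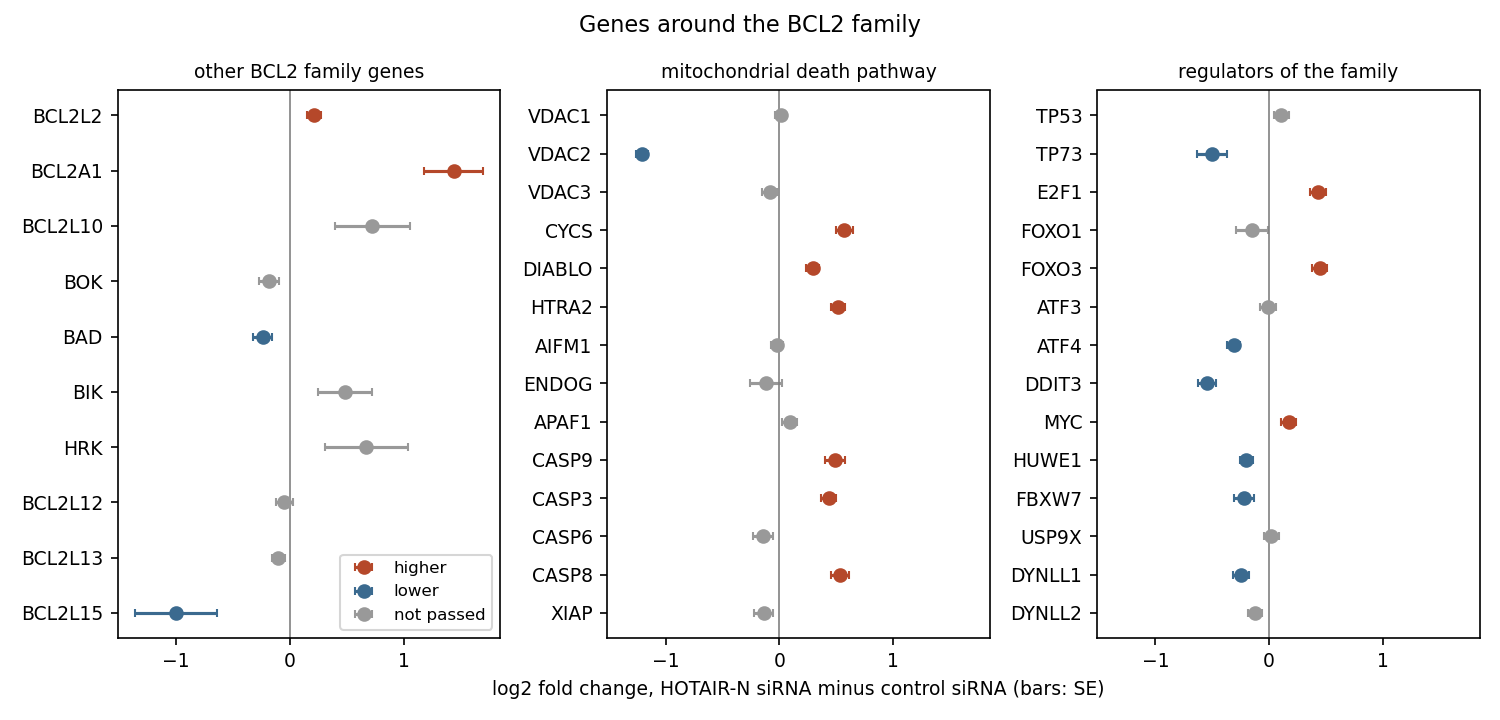
Log2 fold change (x axis, HOTAIR-N siRNA minus control siRNA; bars are SE) of tested genes of 3 further lists, 1 gene left out, with calls by edgeR coloured as higher, lower or not passed. VDAC2 is lowest among the mitochondrial genes at -1.21, and BCL2A1 highest among the other family genes at 1.44.

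A pair of 7-base words from an earlier search of 3′ ends in these data, GACCAAT and ACCAATA, was looked up in the longest annotated 3′ end of each gene (GENCODE release 29). GACCAAT stood in 0 of the 10 members and in 5.9% of 18711 genes. ACCAATA stood in 1 member, MCL1, which rose, and in 8.3% of genes. Of the other genes named from the lists, VDAC2 held ACCAATA and fell. The words' part in any of these changes was not tested.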

How the data were processed

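RNA of H23 cells was read as 6 stranded total RNA libraries with ribosomal RNA depleted, per the labels. STAR 2.6.0c, RSEM 1.3.0 and the build hg19 are named in the submitters' processing notes. An annotation release or strand setting is not given in the sources used here. Per the file headers, the authors deposited expected counts, TPM, effective lengths and each isoform's percent of its gene's TPM. Reads that match several transcripts are divided between them, and 10.9% of the expected counts of genes and 42.2% of those of isoforms were not whole (no tolerance).

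After rounding, the expected counts went into edgeR 4.0.16 under R 4.3.3 (filterByExpr, TMM, robust quasi-likelihood test, Benjamini-Hochberg over all tested features, threshold 0.05), HOTAIR-N siRNA minus control siRNA. Isoforms were tested likewise and isoform use with diffSpliceDGE, which on simulated data called too many unchanged genes. Alternatives were RLE and unscaled totals, other filters, effective lengths as offsets, a fold of 1.5, a replicate block, each library left out, DESeq2 1.42.0 and limma-voom (limma 3.58.1). The p-values measure the spread between 3 transfections a group. Genes named were the members, their tested isoforms that made up at least 10% of the gene or passed, HOTAIR, and the 4 genes of smallest p in each further list. A gene that this rule takes is not reported here. The members and lists were chosen with earlier results of these data known. Sequences were read with Biopython 1.88.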

Additional observations from a re-analysis of the deposited data

How the results depend on the processing

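PMAIP1, BMF, MCL1, BCL2 and BCL2L1 kept their direction and call under every alternative except the test against a fold of 1.5, which left 1 member higher and 1 lower, and 1700 of all tested genes. Under that test the other family genes had 1 higher and 0 lower, the mitochondrial genes 0 higher, and the regulators 0 higher and 0 lower. With at least 1 CPM in 3 libraries the other family genes had 1 higher and 1 lower; DESeq2 called 1 of them lower, and 10043 isoforms. With no filter 1 member isoform was lower. The gene-level F test of isoform use called 795 genes, 1 of them a member.

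No pairing of the libraries by replicate number was seen: deviations of same-numbered libraries from their group means correlated at -0.12, 0.02 and -0.04. Libraries of different numbers correlated at -0.14 to 0.17. With 3 libraries a group, such values cannot show that no pairing existed. A replicate block changed no call of a member gene. It left 2012 isoforms called, 141 genes for isoform use, and 1 member isoform higher and 1 lower, and gave BMF NM_001003940 a log2 fold change of -0.62, against 0.18 without the block.

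With each library left out in turn, 7503 to 9234 genes, 3551 to 5647 isoforms and 186 to 251 genes for isoform use were called. Counts ran from 0 to 2 for other family genes lower, 1 to 2 for mitochondrial genes lower, 1 to 3 for member isoforms higher and 1 to 2 for member isoforms lower. Isoforms whose log2 fold change changed sign, none of them called, were NM_001003940 (-0.61 to 0.76), NM_001291428 (-0.016 to 0.24), NM_138761 (-0.094 to 0.033), NM_138621 (-0.067 to 0.34) and NM_001127241 (-0.052 to 0.44). Of 575 results of single genes and isoforms over all alternatives, 516 kept direction and side of the threshold. The cause of these changes was not tested. BCL2, BMF and BBC3 rest on 31 to 136 counts a library, which limits what can be seen in their isoforms.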

Other observations

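A further BCL2L1 transcript was singled out after its values were seen. NR_134257, an isoform that RefSeq lists as non-coding, had 84.8, 92.7 and 97.2 expected counts with HOTAIR-N siRNA, against 28.89, 41.99 and 59.51 with control siRNA. The groups did not overlap, although the gene as a whole fell. Its log2 fold change of 1.13 (SE 0.31) did not pass (edgeR, adjusted p = 0.0578). It made up 7.84% ± 0.40 of the gene's TPM with HOTAIR-N siRNA and 2.90% ± 1.07 with control siRNA (SD, n = 3 each).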
